A study of Mus musculus with 8 samples.

Results

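Ribosome biogenesis genes, whose products transcribe ribosomal RNA, cut and modify it and fit ribosomal proteins onto it in the nucleolus, were followed across mouse pancreatic tumour isografts. The group is a named list of 40 genes, chosen by symbol, of which 39 were found among the 19129 genes analysed. Wdr74 was the listed gene without a row. The list holds 4 genes of the RNA polymerase I machinery, 14 of the small subunit processome and small subunit maturation, 3 of the box C/D and 3 of the box H/ACA small nucleolar ribonucleoprotein (snoRNP) cores, 9 measured genes of large subunit assembly, and 6 of nucleolar chaperones and multifunctional nucleolar proteins.

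An isograft is a tumour grown from mouse tumour material in a host of the same strain, and each of the 8 libraries came from the whole tumour tissue of a separate mouse. The labels place 4 mice in a control group and 4 in a group named MEKi, given trametinib for 7 days, a drug that blocks the kinases MEK1 and MEK2 upstream of ERK. Of the tumour genotype, mouse strain, age and control treatment nothing is stated in the sources used here. The question addressed is whether these genes follow the drug label, the ERK target gene Dusp6 or the transcription factor gene Myc. Values are on a variance-stabilised, log2-like scale on which well-expressed genes roughly double per step of 1, and each library is named by its label and replicate number.

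Ribosome production starts with RNA polymerase I, which transcribes the long ribosomal RNA precursor. The small subunit processome forms on the nascent precursor, snoRNPs guide methylation and pseudouridylation, and separate sets of factors then mature the small and the large subunit. MYC is known to drive transcription of many of these genes, often through the E-box CACGTG, and ERK is known to phosphorylate the polymerase I initiation factor encoded by Rrn3. Growing tumour cells are known for large nucleoli and high ribosome output.

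Promoter windows from RefSeq (GRCm38.p6), 250 bases before to 50 bases after each gene's start, were available for 35 of the 40 genes. Rrp12, Fbl, Bop1, Rrs1 and Npm1 had no entry. Searched on both strands, CACGTG, a palindrome, was present in 10 of the 35 genes (28.6%), against 8.09% of 27025 genes in the promoter table and 12.1% of the 7025 with a mean value of at least 9 here. CCGGAAGT, the core bound by ETS family factors such as GABPA, was present in 10 genes (28.6%), Wdr74 among them, against 4.31% and 10.2%. The CGCG element, a 10-letter palindrome, was in 0 of the 35, against 0.525% and 1.44%. Ltv1, Rrn3, Tsr1 and Utp4 held both CACGTG and CCGGAAGT, and no pair of these sites overlapped. The 30-base stretches around each CACGTG are shown because the members are set against Myc below. They are written on the gene's strand with the E-box in capitals, and each name gives the stretch on GRCm38.p6:
Rrn3, upstream E-box, chr16:13780472-13780501, plus strand: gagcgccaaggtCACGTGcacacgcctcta
Rrn3, E-box nearer the start, chr16:13780639-13780668, plus strand: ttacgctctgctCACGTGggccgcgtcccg
Nop2, chr6:125131811-125131840, plus strand: gtgtccctggatCACGTGtgttccggtgcc
Utp18, chr11:93885769-93885798, minus strand: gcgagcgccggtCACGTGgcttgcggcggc
Pes1, chr11:3963965-3963994, plus strand: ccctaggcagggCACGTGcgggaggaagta
Utp4, chr8:106893643-106893672, plus strand: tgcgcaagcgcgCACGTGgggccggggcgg
Wdr43, chr17:71616220-71616249, plus strand: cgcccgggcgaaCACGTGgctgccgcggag
Tsr1, chr11:74898092-74898121, plus strand: tcacttggtgcaCACGTGgactgcagaatg
Ltv1, chr10:13193092-13193121, minus strand: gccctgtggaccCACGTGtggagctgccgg
Utp20, chr10:88826765-88826794, minus strand: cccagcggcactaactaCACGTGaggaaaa
Mybbp1a, chr11:72441347-72441376, plus strand: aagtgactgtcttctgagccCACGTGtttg

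The sites of Nop2 and Utp18 and both sites of Rrn3 begin upstream of the start, 60, 20, 215 and 48 bases away, while the other 7 lie just after it. The ETS core is shown for genes at both ends of the values in library MEKi 4 described below: the box H/ACA genes Gar1 and Nhp2, which lie farthest below the other libraries there, and Polr1c, Rrn3 and Bms1, the 3 genes that are not lowest there. The windows of Dkc1, Nop56 and Nop58, also low in MEKi 4, lack these letters. Capitals mark CCGGAAGT or its reverse complement:
Gar1, chr3:129831422-129831451, minus strand: cgcgccgccacACTTCCGGaaacgtcgcgt
Nhp2, chr11:51619739-51619768, plus strand: cacttgaaaacCCGGAAGTgatgtcggagg
Polr1c, chr17:46248069-46248098, minus strand: ccacttgacgtCCGGAAGTgaaggacgtgg
Rrn3, chr16:13780682-13780711, plus strand: tctgcagcgccACTTCCGGggcgggtaggt
Bms1, chr6:118419508-118419537, minus strand: acccagagcttACTTCCGGctttcccctga

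The upstream part of the Utp4 window is printed whole because it holds 2 copies of the ETS core, in capitals as the reverse complement, ahead of the E-box already shown:
Utp4, 250 bases before the start, chr8:106893390-106893639, plus strand: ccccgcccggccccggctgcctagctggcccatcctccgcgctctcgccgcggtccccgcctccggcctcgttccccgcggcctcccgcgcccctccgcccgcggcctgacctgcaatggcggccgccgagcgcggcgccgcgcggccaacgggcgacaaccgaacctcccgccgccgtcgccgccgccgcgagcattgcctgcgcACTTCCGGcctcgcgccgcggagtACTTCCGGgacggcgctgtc

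A letter match is a description of the window and shows no binding.

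Depth ranged from 20090101 to 38569550 reads in the analysed genes, and MEKi 4 was the deepest library. Acinar markers spanned list means of 5.88 to 16.93 and were highest in control 3 and control 2, at 16.93 and 15.23. Ductal and tumour epithelial markers, the labelled tissue's own, were present in every library with list means of 12.07 to 12.79. The ERK target Dusp6 was high and low under both labels. The labels are used here only as names of groups, and whether they match the drug's effect was not tested. MEKi 4 stood apart in the members.

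The score, the mean of the 39 genes in a library, was nearly level in every library except MEKi 4. It was 11.20, 11.20, 11.09 and 11.12 in control 1 to 4 and 11.21, 11.26, 11.08 and 10.61 in MEKi 1 to 4. In the 7 libraries other than MEKi 4 it spanned 0.18, and MEKi 4 lay 0.46 below the next lowest. Control libraries averaged 11.15 ± 0.06 (SD, n = 4) and MEKi libraries 11.04 ± 0.29 (SD, n = 4), and the difference of -0.11 was smaller than the spread of the MEKi libraries. Without MEKi 4 the MEKi mean was 11.18 ± 0.09 (SD, n = 3) and the difference 0.03. On recovered reads with limma voom the difference over all libraries was -0.01, but the median of all genes was 0.12 on that scaling. Relative to the median of all genes, the members' median difference was -0.14 there and -0.12 on the deposited values. In bulk tissue, fewer cells of a type and less RNA per cell cannot be told apart.

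Dusp6 (ENSMUSG00000019960, a phosphatase gene switched on by ERK activity) and Myc had wide ranges. Dusp6 was 12.19, 12.14, 9.31 and 9.24 in control 1 to 4 and 8.88, 12.12, 12.20 and 11.01 in MEKi 1 to 4. Myc was 12.22, 12.23, 10.70 and 10.02 in control 1 to 4 and 10.06, 12.31, 11.72 and 10.23 in MEKi 1 to 4. Over the 7 libraries other than MEKi 4, Dusp6 spanned 3.31 and Myc 2.30. Single members spanned 0.16 to 0.73 there, with a median of 0.31, and the score, whose range averaging over genes narrows, spanned 0.18. MEKi 1 had the lowest Dusp6 of all and a Myc value next to the lowest, and its score of 11.21 was the next to highest. Control 4, also low in both, had 11.12. MEKi 3, with the highest Dusp6, had a score of 11.08, below those of both. Other libraries went the other way: MEKi 2 had the highest Myc and the highest score, 11.26. Control 1 and control 2, high in Dusp6 and Myc, both had 11.20, and control 3, low in both genes, had 11.09. MEKi 4, low in Myc, had the lowest score, 10.61. No slope was fitted on Dusp6, because its values fall apart at a gap of 1.70, which is 51.3% of their range.

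**Figure D1:**
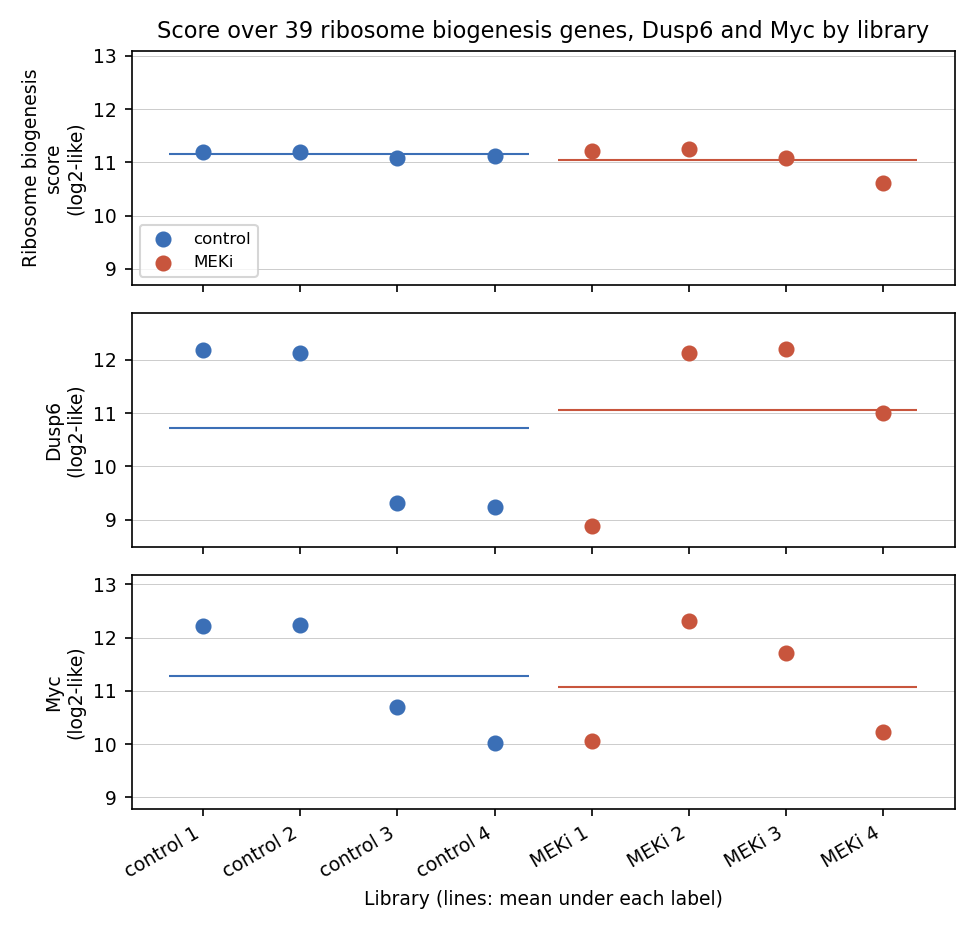
Score over 39 ribosome biogenesis genes, Dusp6 and Myc in each library, on the log2-like scale with panels of equal height in log2 units; points are libraries and lines are the means under each label. The score lies between 11.08 and 11.26 except in MEKi 4, at 10.61, while Dusp6 runs from 8.88 to 12.20 and Myc from 10.02 to 12.31.

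As a share of all reads, the members took 0.596%, 0.538%, 0.448% and 0.613% in control 1 to 4 and 0.624%, 0.597%, 0.560% and 0.405% in MEKi 1 to 4. MEKi 4 was lowest here too. Control 3 was the next lowest, and in that library acinar markers alone took 129041 RPM, the usual library-scaled read count. A share of reads moves with such transcripts, while the score is on the authors' normalised scale.

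Limma called 0 of the 39 genes between the labels, where 0.00523% of the 19129 genes were called in either direction. At an unadjusted p under 0.05 it also counted 0 members, where 1.77% of all genes passed. The label difference, MEKi minus control, had a median of -0.12 over the members and ranged from -0.39 to 0.05, beside a median of 0.01 over all genes. In sign, 37 members were lower and 2, Rrn3 and Wdr43, higher, but 24 were higher and 15 lower without MEKi 4, with a median of 0.02 and a range of -0.10 to 0.15. On recovered reads with limma voom, 24 were lower and 15 higher, with the median of all genes at 0.12 on that scaling and 38 members below it. In 0 members did the libraries of one label all lie above those of the other. No share over all genes is given for this count, so it only describes the members. The 95% limma intervals of single members had a median lower bound of -0.46, with the lowest at -1.02 for Nhp2, and a median upper bound of 0.25, with the highest at 0.41 for Gar1.

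**Figure D2:**
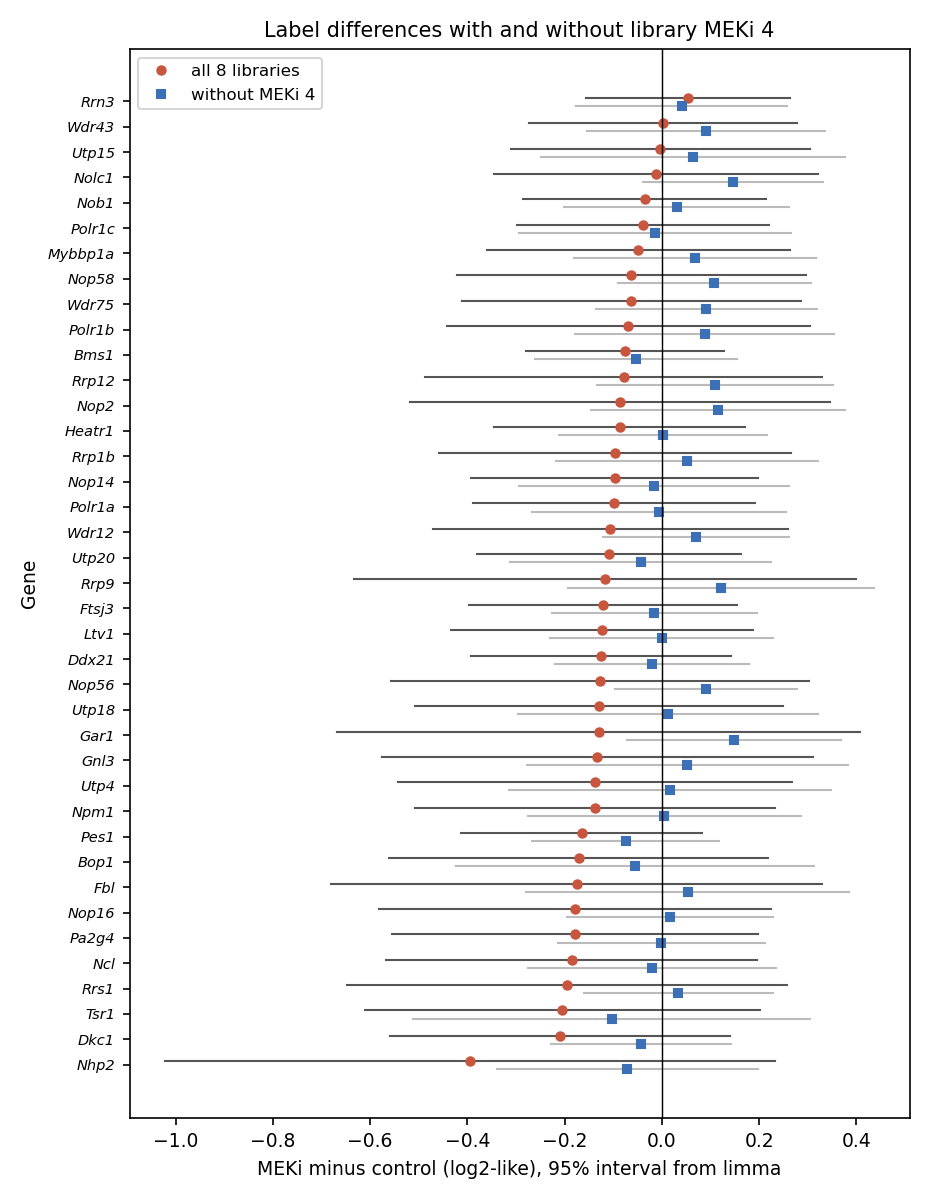
Difference between libraries labelled MEKi and control for each of the 39 genes on the log2-like scale, with 95% limma intervals; circles use all 8 libraries and squares leave out MEKi 4. Every interval with all libraries crosses 0, and without MEKi 4 the differences gather between -0.10 and 0.15.

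Among the 4 RNA polymerase I genes, differences between libraries were small. Polr1b (ENSMUSG00000027395, chromosome 2, 129100995 to 129126594), a core subunit that helps form the active centre, was 10.79, 10.62, 10.57 and 10.41 in control 1 to 4. It was 10.57, 10.87, 10.61 and 10.06 in MEKi 1 to 4. MEKi 4 was lowest and MEKi 2 highest, and the groups overlapped (10.60 ± 0.15 against 10.53 ± 0.34, SD, n = 4 each, difference -0.07, SE 0.17). Polr1a (chromosome 6, 71909053 to 71984935), the largest subunit, was 11.71, 11.84, 11.86 and 11.93 in control 1 to 4 and 12.00, 11.91, 11.58 and 11.46 in MEKi 1 to 4. It was highest in MEKi 1 and lowest in MEKi 4, and its label difference was -0.10 (SE 0.13). Rrn3 (chromosome 16, 13780708 to 13814839), the initiation factor that ERK phosphorylates, had the smallest spread of the 39 genes, an SD of 0.09 over 8 libraries. Its values were 10.33, 10.26, 10.18 and 10.26 in control 1 to 4 and 10.16, 10.43, 10.31 and 10.35 in MEKi 1 to 4, so it was not low in MEKi 4. Polr1c, a subunit shared with RNA polymerase III, was lowest in MEKi 3 at 10.82.

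The 14 genes of the small subunit pathway had label differences between -0.20 and 0.00, 13 of them negative, and 9 positive differences without MEKi 4. Rrp9 (chromosome 9, 106475963 to 106485424), a protein of the U3 snoRNP that the processome needs, was 9.43, 9.73, 9.36 and 9.25 in control 1 to 4. It was 9.60, 9.69, 9.40 and 8.61 in MEKi 1 to 4. Its low value in MEKi 4 set its difference of -0.12 (SE 0.23), which was 0.12 without that library. Tsr1 (chromosome 11, 74898071 to 74909342), a factor of the cytoplasmic small subunit precursor, was 10.46, 10.51, 10.23 and 10.09 in control 1 to 4 and 10.18, 10.60, 9.88 and 9.81 in MEKi 1 to 4. It had the largest spread of any member outside MEKi 4, a range of 0.73 over 7 libraries, and a label difference of -0.20 (SE 0.18). Utp15 (ENSMUSG00000041747, chromosome 13, 98246845 to 98263041), of the processome subcomplex that is also needed for polymerase I transcription, was 10.59, 10.56, 10.28 and 10.27 in control 1 to 4. It was 10.27, 10.73, 10.47 and 10.22 in MEKi 1 to 4. Both labels held high and low Utp15 libraries, and the label difference was -0.003 (SE 0.14). Bms1, the GTPase of the processome, was among the 3 members not lowest in MEKi 4, with 11.79 there and 11.72 in MEKi 3.

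The snoRNP core genes stood lowest in MEKi 4. Fbl (chromosome 7, 28169710 to 28179269) encodes fibrillarin, the methyltransferase of box C/D snoRNPs, and was 11.05, 11.28, 11.17 and 11.48 in control 1 to 4. It was 11.60, 11.19, 11.11 and 10.38 in MEKi 1 to 4. The highest and the lowest Fbl values were thus both under the MEKi label, and the difference was -0.18 (SE 0.22), or 0.05 without MEKi 4. Nop56 and Nop58, the scaffold proteins of the same particles, were 11.26 and 11.53 in MEKi 4 and at least 11.98 and 11.99 in every other library. Nhp2 (chromosome 11, 51619735 to 51623714), an RNA-binding protein of box H/ACA snoRNPs and of telomerase, was 10.75, 10.89, 10.82 and 10.93 in control 1 to 4. It was 10.99, 10.80, 10.53 and 9.48 in MEKi 1 to 4. Its label difference of -0.39 (SE 0.28) was the lowest among the members and was -0.07 without MEKi 4. Gar1 was 9.43 in MEKi 4 and 10.26 to 10.61 elsewhere, and Dkc1, the pseudouridine synthase, was 10.36 against 10.96 to 11.15.

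All 9 measured large subunit assembly genes had lower means under the MEKi label, and 6 of them had higher means without MEKi 4. Rrs1 (chromosome 1, 9545408 to 9547455), which helps load the ribonucleoprotein of the smallest ribosomal RNA, was 9.91, 9.85, 9.92 and 9.92 in control 1 to 4. It was 9.89, 10.01, 9.89 and 9.02 in MEKi 1 to 4. Over the 7 other libraries Rrs1 spanned 0.16, the narrowest range of any member, and MEKi 4 lay 0.83 below the next. Pes1 (chromosome 11, 3963975 to 3980004) forms a complex with the products of Bop1 and Wdr12 that the large subunit needs. Pes1 was 11.15, 11.24, 11.05 and 11.13 in control 1 to 4 and 11.11, 11.12, 10.97 and 10.71 in MEKi 1 to 4. It had the smallest p of the 39 genes for the label, with a difference of -0.17 (SE 0.11, 95% limma interval -0.41 to 0.08) that was -0.07 without MEKi 4.

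The 6 nucleolar chaperone and multifunctional genes all had lower means under the MEKi label, by 0.19 or less. Ncl (chromosome 1, 86344719 to 86359400), which encodes nucleolin, was 14.49, 14.40, 14.44 and 14.60 in control 1 to 4 and 14.61, 14.47, 14.30 and 13.80 in MEKi 1 to 4. The difference of -0.19 (SE 0.17) was -0.02 without MEKi 4. Pa2g4 (chromosome 10, 128557766 to 128565987), a growth-regulating protein that binds ribosome precursors, was 11.94, 12.03, 11.98 and 12.11 in control 1 to 4. It was 12.18, 11.97, 11.90 and 11.30 in MEKi 1 to 4, a difference of -0.18 (SE 0.17) that was -0.0008 without MEKi 4. Npm1, the nucleolar chaperone nucleophosmin, was 14.73 in MEKi 4 and 15.12 to 15.41 elsewhere, and as a gene with many near-identical pseudogene copies its level is uncertain.

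MEKi 4 was the lowest of the 8 libraries for 36 of the 39 genes, all but Polr1c, Rrn3 and Bms1. Among the 8822 genes with a mean of at least 9 it was the lowest for 25.6% and the highest for 29.6%, so it was an extreme for many genes in both directions. Its value minus the median of the other 7 libraries had a median of -0.57 over the members and ran from -1.34 for Nhp2 to 0.09 for Rrn3, beside 0.02 over those 8822 genes, of which 8.26% lay below the members' median. For 20 members MEKi 4 lay below the next lowest library by more than the whole range of the other 7 libraries. The share of all genes that meet this criterion was not counted, so the 20 only describe the members. Against the median of the other 7, the median gap by role was -0.27 for polymerase I, -0.40 for the small subunit and -0.79 for box C/D. It was -1.02 for box H/ACA, -0.65 for the large subunit and -0.58 for the nucleolar genes. The members' median in the other libraries stayed between -0.08 and 0.10 when taken the same way.

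**Figure D3:**
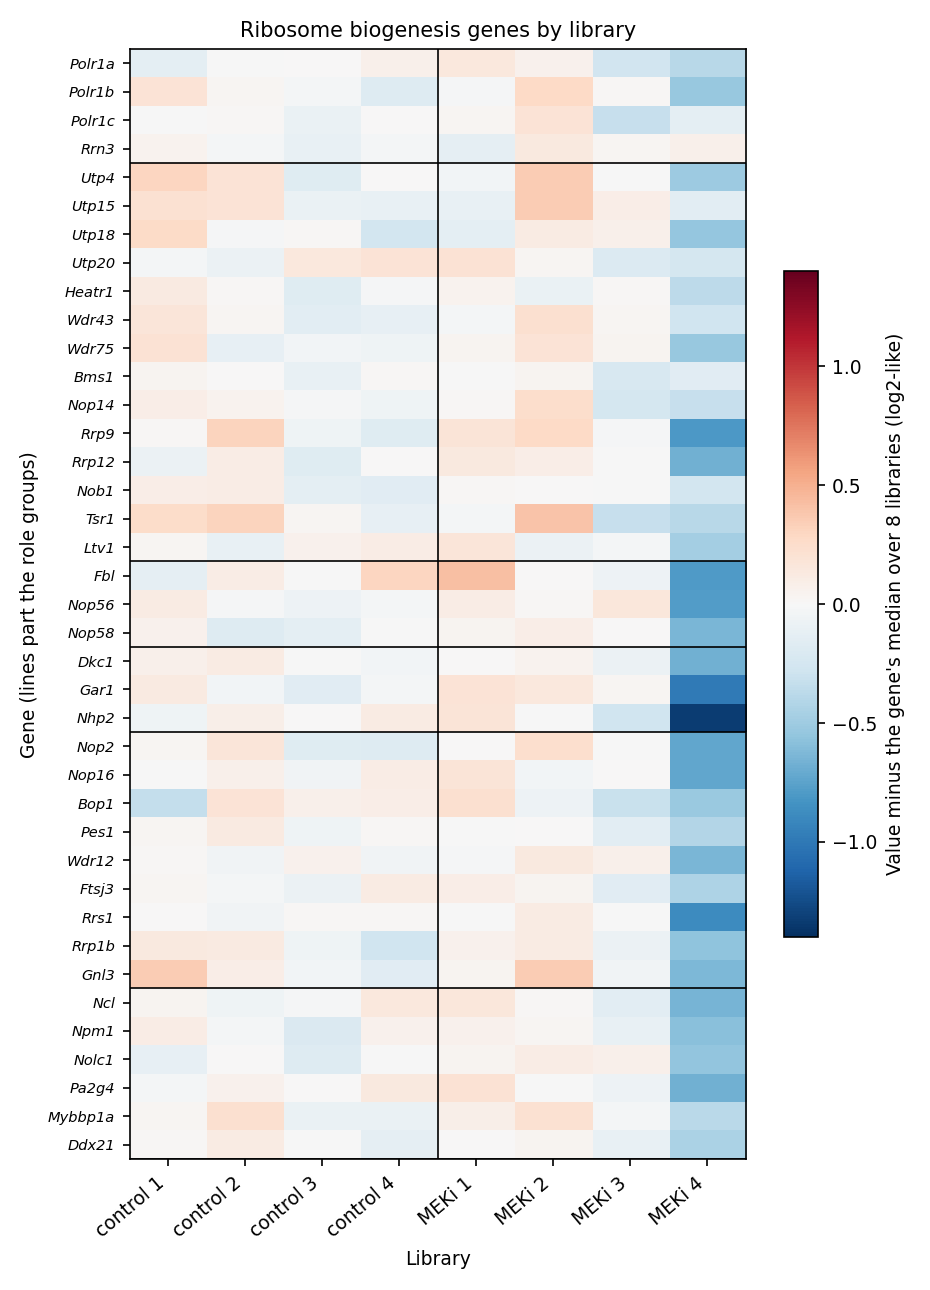
Value of each of the 39 genes (rows, ordered by role with lines between roles) in each library (columns), as the difference from the gene's median over 8 libraries on the log2-like scale. The MEKi 4 column is the lowest for 36 of 39 genes, with Nhp2 and Gar1 the darkest cells, while no other column is low throughout.

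The rest of the pathway also lay low in MEKi 4, with smaller median gaps. In MEKi 4, 70 of 82 other ribosome biogenesis genes lay below their median of the other libraries (median gap -0.26), as did 70 of 74 cytosolic ribosomal protein genes (-0.38) and 9 of 12 other RNA polymerase I genes (-0.29). Of 20 MYC-driven genes of metabolism and translation, 19 lay below (-0.61), and of 12 proliferation markers, 10 (-0.50). Between the labels limma called 0 genes in each of these lists, and 57 of the 82, 62 of the 74, 9 of the 12 and 19 of the 20 had lower means under MEKi in sign. The smallest p of the other biogenesis genes belonged to the helicase gene Ddx56 (difference -0.17, SE 0.09), and that of the ribosomal protein genes to Rps26 (-0.30, SE 0.18).

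Other measures of MEKi 4 also stood apart, and their part in the members' low values was not tested. Its 11 ductal and tumour epithelial markers averaged 12.07, below the 12.44 to 12.79 of the other libraries, and 8 of them lay below their median there. Their summed level was 5686 RPM against 5651 to 8048, and none of the 11 was at 0 reads in any library. Epcam was 10.70 against 12.66 to 13.10, Krt19 was 14.23 against 14.55 to 14.88, and Cdh1 at 14.49 was the highest of all 8 libraries. The neutrophil marker mean was 8.05 against 8.53 to 9.94, with 79.6 RPM summed against 135 to 414. The B and plasma cell marker mean was 6.24 against 6.34 to 8.53, with 8.12 RPM summed against 11.0 to 158. The acinar mean was 11.27, inside the range of the others, as were the islet, macrophage, T cell, fibroblast and endothelial means. Malat1, a nuclear long noncoding RNA, was highest there at 13.91 against 13.01 to 13.63, and Lars2, which encodes a mitochondrial leucyl-tRNA synthetase, was lowest at 11.45 against 12.96 to 13.83. Long transcripts were higher there: over 5 equal classes of transcript length, the median gap of all genes with a mean of at least 9 ran from -0.17 in the shortest class to 0.19 in the longest. The members' median gap was -0.78, -0.57, -0.49, -0.45 and -0.52 in those classes (8, 12, 8, 5 and 6 genes). Each was below the median of all genes in its class, while single members reached 0.09, in the middle class. Whether transcript length plays a part in the members' values was not tested.

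Against Myc, most members had small positive slopes over the 8 libraries, and the count past the threshold was near the background, but the size of the slopes depended on which libraries were fitted. A slope is the change of a gene's log2-like value per unit of Myc across the 8 libraries, and it was fitted because the widest gap between neighbouring Myc values, 1.02, is 44.4% of their range. Limma called 1 of 39 members (2.56%), with a positive slope, where 3.71% of all genes were called in either direction, 2.39% with a positive and 1.32% with a negative slope. At an unadjusted p under 0.05 it counted 9 members (23.1%) against 18.4% of all genes. These were Utp15, Utp4, Utp18 and Wdr43 of the processome, Polr1b, Tsr1, and the large subunit genes Gnl3, Nop2 and Rrp1b. The median slope was 0.09, from -0.06 (Utp20) to 0.21 (Gnl3), with 34 positive and 5 negative, beside a median of -0.0004 over all genes. MEKi 4 is low in both Myc and the members: without it the median slope was 0.02, with 29 positive and 10 negative, and 1 member was called against 5.02% of all genes. Without control 4 and MEKi 1, the libraries farthest from the Myc median, all 39 slopes were positive with a median of 0.23. Limma then called 0 members, while 30 (76.9%) had an unadjusted p under 0.05, against 19.7% of all genes. MEKi 4, with a Myc of 10.23 and a score of 10.61, was the lowest of that fit's libraries in both. No fit left out MEKi 4 as well, so its weight in these slopes was not tested.

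Utp15 was the called gene, with a slope of 0.17 per unit of Myc (SE 0.04, limma adjusted p = 0.0466). Its 4 highest values, 10.47 to 10.73, were in control 1, control 2, MEKi 2 and MEKi 3, where Myc was 11.72 or more, and its 4 other values were 10.22 to 10.28. The call ended without any 1 library other than MEKi 4, without which limma gave an adjusted p of 0.0427 and a slope of 0.17. The slope itself lay between 0.15 and 0.18 with each library left out. Polr1b (0.17, SE 0.06), Utp4 (0.20, SE 0.07) and Gnl3, the nucleolar GTPase nucleostemin (0.21, SE 0.08), had slopes of like or larger size that were not called (limma adjusted p = 0.176, 0.145 and 0.177). Fbl had a slope of -0.02 (SE 0.12), or -0.15 without MEKi 4 (SE 0.05, limma adjusted p = 0.144). Its highest values were in MEKi 1 and control 4, where Myc was lowest.

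**Figure D4:**
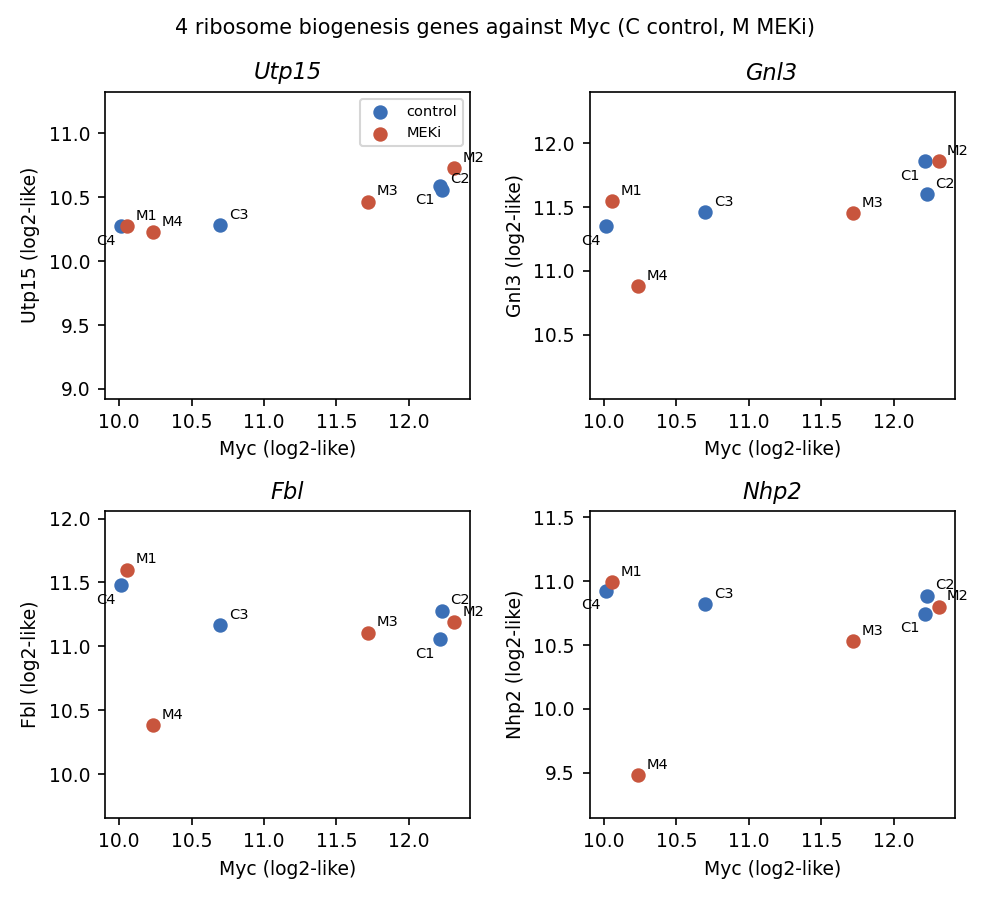
Value of Utp15, Gnl3, Fbl and Nhp2 against Myc in each library, both on the log2-like scale with panels of equal height (C control, M MEKi, with the replicate number). Utp15 is higher in the 4 libraries with Myc of 11.72 or more, while Fbl and Nhp2 are highest in M1 at 11.60 and 10.99 and lowest in M4 at 10.38 and 9.48.

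The 10 genes with CACGTG in their window had a median slope of 0.13, from Utp20 at -0.06 to Utp4 at 0.20, and 5 of them had an unadjusted p under 0.05. The 24 measured genes with a window lacking it had a median of 0.09, with 4 under 0.05. Utp15 and Gnl3 are among the 24. Over the genes with a mean of at least 9, the median slope was 0.01 both with and without CACGTG, and 19.2% and 21.3% had an unadjusted p under 0.05. For CCGGAAGT the median slope was 0.06 in the 9 measured genes with it, 2 of them under 0.05, and 0.11 in the 25 without it, 7 of them under 0.05. Among all genes of that level, the median slope was 0.015 with CCGGAAGT and 0.010 without it. Of these genes, 15.0% and 21.7% had an unadjusted p under 0.05. The differences between members with and without a motif were not tested.

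**Figure D5:**
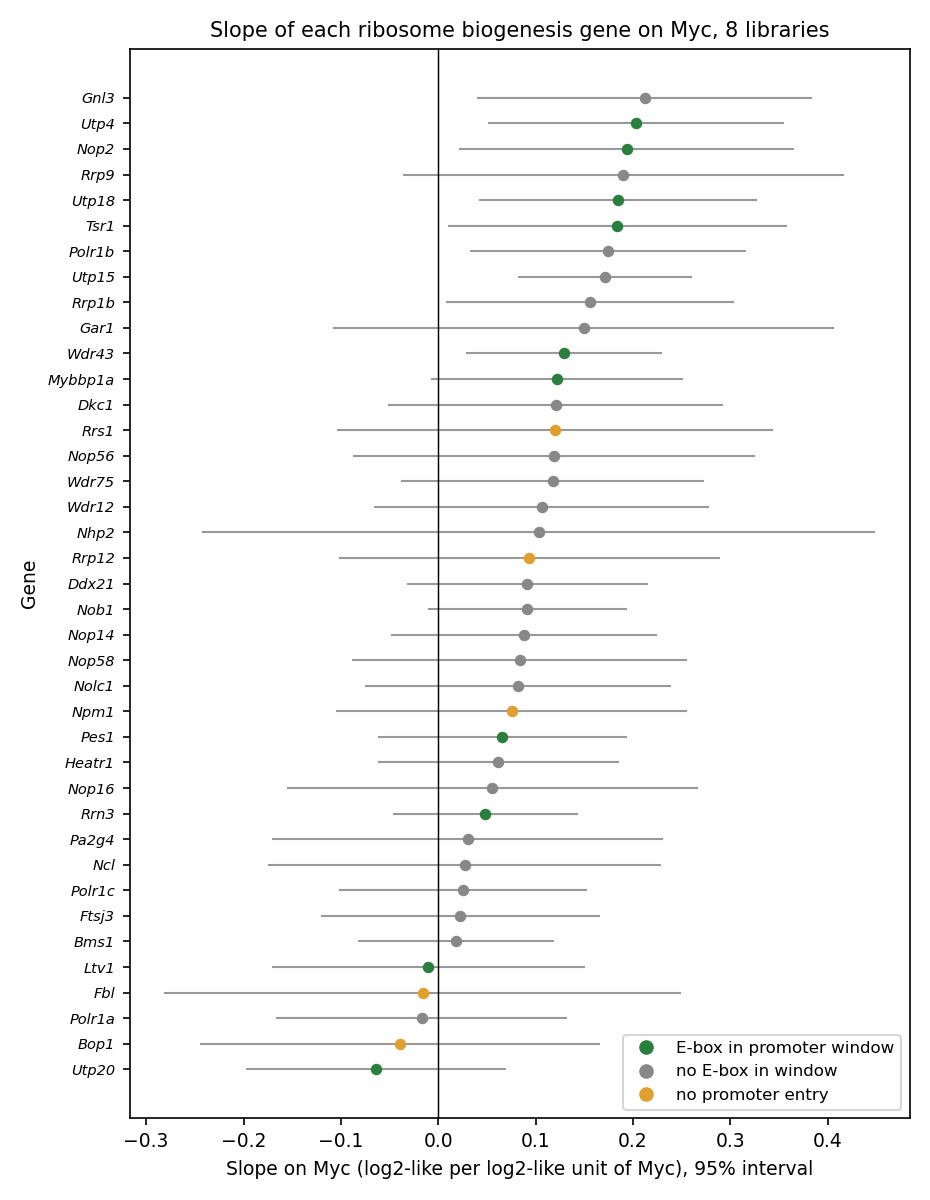
Slope of each of the 39 genes on Myc over 8 libraries with 95% limma intervals, in log2-like units per unit of Myc, coloured by whether the promoter window holds CACGTG. Slopes run from -0.06 to 0.21, and genes with the motif lie from Utp20 at the bottom to Utp4 near the top.

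The other lists differed in how they lay against Myc. Beside them, limma called 3.71% of all genes in either direction, and 18.4% had an unadjusted p under 0.05. Of 82 other ribosome biogenesis genes 69 had a positive slope, and limma called 1, the large subunit GTPase gene Gtpbp4 (slope 0.22, SE 0.04, adjusted p = 0.0242). Of 74 ribosomal protein genes 73 had a positive slope and 0 were called by limma, with 12 (16.2%) at an unadjusted p under 0.05. Of 20 MYC-driven genes 16 were positive and 1 was called, Eef1e1 of the multi-tRNA synthetase complex (slope 0.35, SE 0.07, limma adjusted p = 0.0233). By contrast, limma called 10 of 13 ERK output genes, all 13 with positive slopes, and Etv5, at 0.61 (SE 0.04), had the smallest p among them. Dusp6, in the same list, had a larger slope of 1.28 (SE 0.22). Endothelial markers moved with Myc as well, with 4 of 8 called, Cdh5 at 0.73 (SE 0.09) among them, and whether cell composition plays a part in the members' slopes was not tested.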

How the data were processed

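Total RNA of 8 tumours was sequenced from stranded libraries, per the labels' protocols. STAR 2.5.3a, DESeq2 1.18.1 and GRCm38 are named in the submitters' processing notes, while no source used here gives the annotation, counting step or filter. Genes with near-identical copies or overlapping neighbours are therefore uncertain. The deposited values are log2-scale values, variance-stabilised by the authors. Their floor of 5.12 stands for 0 reads, and inverting the transformation gave whole reads (within 0.01) for 100% of values, which supplied depths. The scale understates changes of genes with few reads.

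Of 19431 rows, 32 unnamed rows (0.101% to 0.167% of reads) were left out, and 86 repeated symbols kept their highest row by mean. Symbols of 19118 genes matched reference names. Gene coordinates are from GENCODE vM21 (GRCm38), counted from 1, and promoters are from RefSeq. Limma 3.58.1 in R 4.3.3 (lmFit, eBayes with trend, two-sided) was fitted to all genes for the label and for Myc, adjusted over all genes by Benjamini-Hochberg, at a threshold of 0.05. A slope was fitted only where the widest gap was at most 50% of the range. The members and lists were chosen with earlier results of these data known, so the score has no p-value. Full values are given for Dusp6, Myc, the member of each role with the largest SD and that with the smallest label p, and called members. Other members appear by range or single values, and other lists by at most 2 genes for a fit, and Rrn3, Epcam, Krt19, Cdh1, Malat1 and Lars2 were picked after their values were seen.

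Nothing in the labels ties replicate numbers 1 to 4 to a shared batch. Whether replicates were separate cultures of a tumour is not stated, so p-values measure the spread between these mice. On simulated data the label fit recovered 78.5% of 65 genes changed by 1 and called 9 of 18929 unchanged genes, and the Myc fit recovered 68.7% of 67 genes with a slope of 0.5. Alternatives were robust or trendless moderation, quantile or median scaling, a 75% filter, every row kept, limma voom, a label, acinar or replicate term, and each library left out. Figures were drawn with matplotlib 3.10.9.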

Additional observations from a re-analysis of the deposited data

Results flagged for a closer look

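For each of 42 values, the 39 genes, the score, Dusp6 and Myc, the highest and lowest of the 4 libraries under a label were compared with the other libraries of that label by Dixon's ratio at its 95% critical value. Of 84 groups tested 8 held a library that far from the rest, where chance gives about 1 group in 20, and the groups share libraries. No flags were counted over all genes, where MEKi 4 was also often the lowest or the highest library. In 6 of the 8 flagged groups the library was MEKi 4. Its values were 11.26 for Nop56 and 11.53 for Nop58, the box C/D scaffold genes, 9.43 for the box H/ACA gene Gar1, and 9.02 for the large subunit gene Rrs1. They were 10.92 for Nolc1, a chaperone of snoRNPs, and 9.90 for Nob1, the endonuclease that finishes the small subunit RNA. The other 2 were small departures in tight control groups: control 3 was low for Polr1c at 11.05, and control 2 was low for Rrs1 at 9.85.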

How the results depend on the processing

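Between the labels limma called 0 members in the 17 alternatives run, and 0 genes of the other ribosome and MYC lists. The score difference of -0.11 ran from -0.19 to -0.01 over 7 other settings and from -0.19 to 0.03 with each library left out. The score difference was above 0 only without MEKi 4. Its value of -0.01 was with limma voom, where the median of all genes was 0.12. Label differences that changed sign were 0.026 for Polr1b, 0.011 for Polr1a and 0.097 for Utp15 with limma voom, and 0.025 for Utp15 with medians aligned. With each library left out, they ran from -0.18 to 0.088 for Polr1b, -0.24 to 0.12 for Rrp9, -0.35 to 0.053 for Fbl, -0.30 to 0.034 for Rrs1 and -0.10 to 0.063 for Utp15. Each of these upper ends was the fit without MEKi 4. The sign-changed values with limma voom and with medians aligned lay below the median of all genes on those scalings, 0.12 and 0.033. Why the signs changed on those scalings was not tested.

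Against Myc the member count of 1 was 0 without trend, with the label or acinar term, with quantile or median scaling, with limma voom, and without control 4 and MEKi 1, the 2 libraries farthest from the Myc median. With each library left out the count was 0 to 1. The 710 genes called overall became 392 with limma voom, 186 without those 2 libraries and 111 to 960 with each left out. Whether the replicate numbers mark a shared batch is not stated. After each label's mean was removed, the correlations of same-numbered libraries were -0.333, 0.196, -0.465 and 0.024. They cannot decide it, because other differences between the tumours enter them too. With the replicate block 0 members were called against Myc, 1 had an unadjusted p under 0.05, 16 slopes were positive and 23 negative (median -0.017), and 0 genes were called overall for Myc and 0 for the label.

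With 4 libraries a label, the 95% interval of a member's difference had median bounds of -0.46 and 0.25, so small differences could not be told from 0.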
